A study of Caenorhabditis elegans with 16 samples.

Results

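The genes described here are 36 genes of *Caenorhabditis elegans* that act in the growing oocyte, in the eggshell that forms after fertilisation and in the handling of maternal messenger RNA. They were chosen by name from the deposited gene table, which holds 21982 genes. All 36 passed the filter on low counts. By role they comprise 11 genes of the eggshell and its permeability barrier, 21 genes for RNA-binding proteins, 2 genes of the oocyte surface and endocytosis (*rme-2* and *cav-1*) and 2 genes of egg activation and division (*mbk-2* and *ify-1*).

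RNA was taken from lysates of whole animals, about 1000 per library, and 16 libraries formed 4 groups of 4. Wild-type animals were the N2 (Bristol) strain on bacteria carrying an empty vector for RNA interference. The other animals carried a mutation in *jmjd-3.1*, a histone demethylase gene, and ate bacteria directed against *cbp-1*, a histone acetyltransferase gene, from the first larval stage on. The labels call these animals H3K27ac(-), and they name different alleles of *jmjd-3.1* in different fields, gk384 and gk387. Both genotypes were kept at 20 °C and had either unlimited food or none during the 24 h between adult days 1 and 2. No group carried the mutation without the RNA interference, and the effects of each cannot be told apart. Reads of *cbp-1* were not lower in these animals, at 209.6 ± 36.5 CPM against 103.1 ± 16.9 CPM in wild type when fed (SD, n = 4; CPM is the count per 1e6 reads after TMM scaling). When fasted *cbp-1* had 276 ± 30.5 CPM against 149 ± 18 CPM. *jmjd-3.1* reads were not lower either, at 17.4 ± 2.71 against 12.3 ± 0.398 CPM when fed and 21.8 ± 0.921 against 20 ± 2.65 CPM when fasted. By edgeR *cbp-1* was higher by 1.02 on the log2 scale when fed (adjusted p 1.9e-06) and by 0.89 when fasted (adjusted p 1.01e-05). *jmjd-3.1* was higher by 0.50 when fed (edgeR adjusted p 0.00158), and its 0.12 when fasted did not pass. Reads per gene alone do not show whether the mutation and the RNA interference acted, and this was not tested. The animals are called labelled-deficient here, and every direction between genotypes rests on the label.

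An oocyte of *C. elegans* grows in the proximal gonad and takes up yolk through a receptor on its surface. It also receives large amounts of messenger RNA that is kept silent by bound proteins until maturation or the first cleavages. At ovulation and fertilisation the oocyte secretes a layered eggshell. An outer vitelline layer forms first, followed by a chitin layer and a layer of chondroitin proteoglycans, and a permeability barrier beneath them closes the embryo to small molecules. RNA-binding proteins of the same cell set when and where maternal transcripts are translated, first in the meiotic germline and later in the early embryo. In RNA from whole animals, fewer oocytes or embryos and less RNA per cell cannot be told apart.

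Estimated read totals ran from 16446081 to 27792762 per library. The members took 1.39% to 1.94% of the reads in fed wild type and 1.02% to 1.16% in fasted wild type. They took 1.41% to 2.04% in fed and 1.52% to 1.91% in fasted labelled-deficient libraries. Libraries numbered 4 stood apart for these genes. Of the 36 members, 32 were highest in replicate 4 of fed wild type, 29 in replicate 4 of fasted wild type, 34 in that of fed and 35 in that of fasted labelled-deficient libraries. The median member lay 0.32, 0.10, 0.44 and 0.24 above its group mean on the log2 scale in those 4 libraries. Leaving all 4 out gave 28 members lower on fasting in wild type, against 29 with them, and 32 higher between fasted genotypes, against 30. Of all tested genes that fit called 4823 lower on fasting in wild type and 4430 higher between fasted genotypes.

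Levels of different genes were compared as TPM (transcripts per 1e6 transcripts), which accounts for transcript length. In fed wild type *perm-2* and *perm-4* were the most abundant members, at 2779 ± 293 and 2581 ± 314 TPM (SD, n = 4). Both are required for the permeability barrier of the eggshell. Next came *cey-3*, a Y-box protein with a cold shock domain that binds germline RNA, at 855 ± 137 TPM, and *cpg-2*, a chondroitin proteoglycan of the inner eggshell, at 574 ± 122 TPM. The least abundant member was *lin-41*, a protein with TRIM and NHL domains that controls oocyte growth and maturation, at 6.06 ± 2 TPM. In fasted labelled-deficient libraries the order differed. There *cpg-2* led with 1088 ± 135 TPM, followed by *cey-2*, the paralogue of *cey-3*, with 900.5 ± 94.7 TPM, while *perm-2* stood at 272 ± 37.6 TPM. The libraries of *cpg-2* and *cey-2* there overlapped. TPM values are not scaled by TMM, so they give the order of genes within a group, and changes of a gene between groups are given in CPM.

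**Figure D1:**
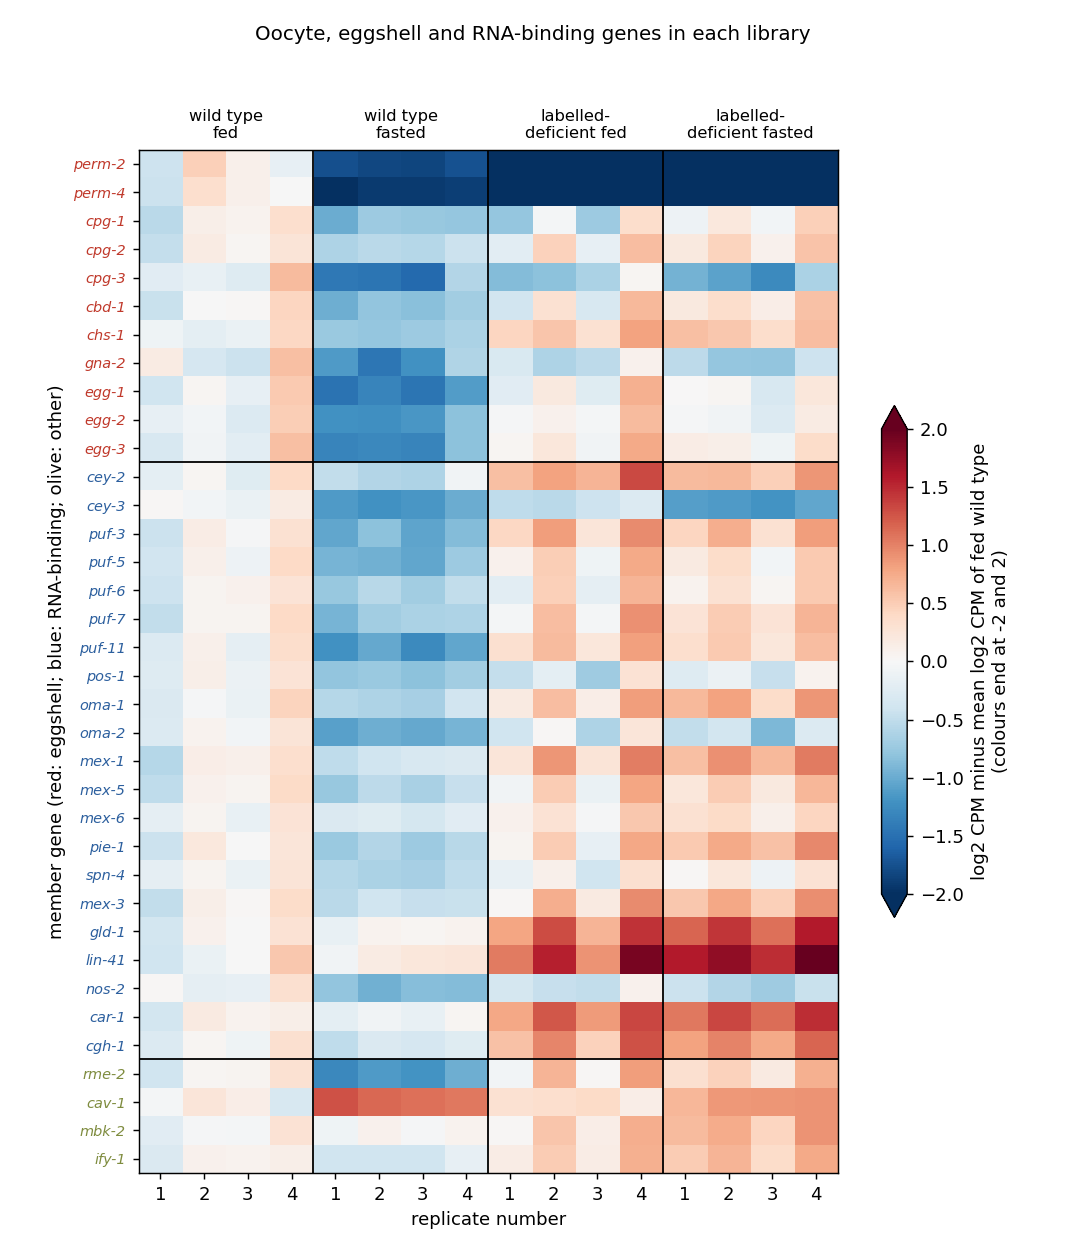
Level of each of the 36 members (rows, by role) in each of the 16 libraries (columns, by group and replicate number), as log2 CPM minus the mean log2 CPM of fed wild type. Red is higher and blue is lower than fed wild type, and colours end at -2 and 2. The fasted wild-type block is blue for most rows, *cav-1* is red there, and *perm-2* and *perm-4* are the darkest blue rows in both labelled-deficient blocks.

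Fasting of wild-type animals lowered 29 of the 36 members and raised 1, *cav-1*. The other 6 did not pass the test. Among all 15840 tested genes 30.6% were called lower and 30.4% higher in this comparison (edgeR quasi-likelihood test, Benjamini-Hochberg adjusted p under 0.05). The median member changed by -0.74 on the log2 scale, and the median of all tested genes by 0.012. For 25 members, or 69.4%, the fasted and the fed libraries did not overlap, against 50.4% of all tested genes. All 11 eggshell genes fell, with a median change of -1.13. Of the 21 RNA-binding genes 16 fell, none rose and 5 did not pass, with a median of -0.62.

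The largest falls were those of the barrier genes. *perm-2* had 1882, 3475, 2673 and 2241 CPM in the 4 fed wild-type libraries and 740.3, 712, 700.5 and 749 CPM in the 4 fasted ones. The groups lie far apart, and the fasted libraries are close to each other while the fed ones spread widely. *perm-2* fell by 1.82 (SE 0.16) on the log2 scale, 3.54-fold, with an edgeR adjusted p of 3.15e-09. *perm-4* had 3243, 5494, 4687 and 4319.6 CPM in fed and 1074, 1162, 1153 and 1185 CPM in fasted wild type. Every fed library exceeded every fasted one, and the fall was 1.96 (SE 0.19), 3.88-fold, with an edgeR adjusted p of 9.2e-09.

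The remaining 9 eggshell genes fell less, by 0.56 to 1.38 on the log2 scale. At the upper end stood *egg-1*, an oocyte membrane protein with LDL receptor repeats that is needed for sperm entry. It had 331, 451, 391 and 631 CPM when fed and 157, 174, 159.6 and 202 CPM when fasted. The fasted libraries all lie below the fed ones, and replicate 4 is the highest of each group. Its change was -1.38 (SE 0.20) with an edgeR adjusted p of 4.24e-06. Its paralogue *egg-2* changed by -1.13, and *egg-3*, a phosphatase-like protein that holds activation factors at the oocyte cortex, by -1.22. Genes of chitin synthesis also fell. The chitin synthase *chs-1* had 259, 238, 250.4 and 365 CPM when fed and 163, 160.1, 166 and 177 CPM when fasted. The fasted libraries lie close together and below all fed ones, among which replicate 4 is high. The change of *chs-1* was -0.74 (SE 0.13). *gna-2*, an acetyltransferase that supplies the chitin precursor, changed by -1.13. The chondroitin proteoglycans *cpg-1*, *cpg-2* and *cpg-3* changed by -0.84, -0.56 and -1.25. *cpg-1* had 470.0, 743, 720.0 and 863 CPM when fed and 345, 415, 402 and 401 CPM when fasted, so its lowest fed library lies not far above the fasted ones. The chitin-binding vitelline layer protein *cbd-1* changed by -0.85. The fed and fasted libraries overlapped for *cpg-2* alone among the 11 eggshell genes.

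By family of RNA-binding genes, all 5 PUF genes fell, with a median of -0.94. These proteins bind motifs in the untranslated regions of target transcripts and, in the oocyte, repress their translation. The largest fall was that of *puf-11*, which had 207, 269, 219.5 and 319 CPM when fed and 108, 122, 103 and 121 CPM when fasted. The 2 groups do not overlap, and its change was -1.16 (SE 0.15) with an edgeR adjusted p of 6.79e-07. *puf-3* changed by -0.97, *puf-5* by -0.94, *puf-7* by -0.75 and *puf-6* by -0.64. Both cold shock genes fell, *cey-3* by 1.13 and *cey-2* by 0.45. *cey-3* had 1368, 1299, 1226 and 1509.7 CPM in fed and 612, 584, 602 and 674 CPM in fasted wild type. The fed libraries all lie far above the fasted ones.

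Of the 7 CCCH zinc finger genes, which act in oocyte maturation and in the asymmetric early embryo, 6 fell. *oma-2*, one of a redundant pair required for oocyte maturation, changed by -1.02 and its partner *oma-1* by -0.58. *pos-1*, a translational regulator of posterior cells in the embryo, changed by -0.77. *pie-1*, which keeps transcription off in germline blastomeres, changed by -0.67. *mex-5* changed by -0.62 and *mex-1* by -0.41, and *mex-6* at -0.29 (SE 0.13) did not pass, with an edgeR adjusted p of 0.0518. In the remaining 7, with other RNA-binding domains, 3 fell. These were *nos-2*, a nanos protein of the germline precursors, at -0.88, *spn-4*, an early embryonic translational regulator, at -0.61, and *mex-3*, a KH-domain repressor, at -0.49. The other 4 did not pass. *cgh-1*, a DEAD-box helicase of germ granules and storage particles, stood at -0.35 (SE 0.16), and its LSM-domain partner *car-1* at -0.10 (SE 0.14). *gld-1*, a STAR-domain repressor of the meiotic germline, stood at -0.0087 (SE 0.16) and *lin-41* at 0.10 (SE 0.20).

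*gld-1* had 249, 341, 319.7 and 389.9 CPM when fed and 288, 336, 329.6 and 338 CPM when fasted, so the fasted range lies inside the fed one. *lin-41* had 38.4, 46.4, 50.4 and 73.6 CPM when fed and 48.2, 56.5, 59.5 and 60 CPM when fasted. Its 2 groups overlap, and its approximate 95% interval for the change runs from -0.28 to 0.49. *gld-1* has an interval from -0.33 to 0.31, which excludes a fall as large as the median of the RNA-binding genes.

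The yolk receptor *rme-2* also fell. It had 197, 266, 270.2 and 321 CPM in fed and 106, 118, 113 and 131 CPM in fasted wild type. The 4 fasted libraries are all below the 4 fed ones, and the change was -1.17 (SE 0.18) with an edgeR adjusted p of 9.21e-06. *cav-1*, the caveolin of oocyte cortical granules and embryonic vesicles, went the other way. It had 199, 240.5, 223 and 163 CPM when fed and 493, 451, 437 and 422 CPM when fasted. All fasted libraries exceed all fed ones, and replicate 4, the highest library for most members, is the lowest for *cav-1* in both groups. Its change was 1.13 (SE 0.12), 2.19-fold, with an edgeR adjusted p of 3.38e-08. The securin gene *ify-1*, whose product holds back chromosome separation, had 89.3, 116, 114 and 118 CPM when fed and 82.1, 82.7, 82.2 and 97.2 CPM when fasted. The groups overlap, since replicate 4 of the fasted and replicate 1 of the fed libraries cross, and the change was -0.35 (SE 0.13) with an edgeR adjusted p of 0.0283. *mbk-2*, a kinase that marks oocyte proteins for removal at egg activation, stood at 0.0036 (SE 0.14) and did not pass.

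Of these wild-type calls *mex-1*, *cey-2*, *ify-1* and *mex-3* were lost when single libraries were left out. *mex-1* was lost in 10 of 16 such fits (edgeR adjusted p 0.0506 to 0.146) and *ify-1* in 6 (0.0557 to 0.0667). *cey-2* was lost without fed replicate 4 (-0.31, edgeR adjusted p 0.111) and without fasted replicates 1, 2 or 3 (-0.43 to -0.39). *mex-3* was lost without fed replicate 4 (-0.37, edgeR adjusted p 0.0769) and without fasted replicate 1 (-0.47, 0.0513).

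**Figure D2:**
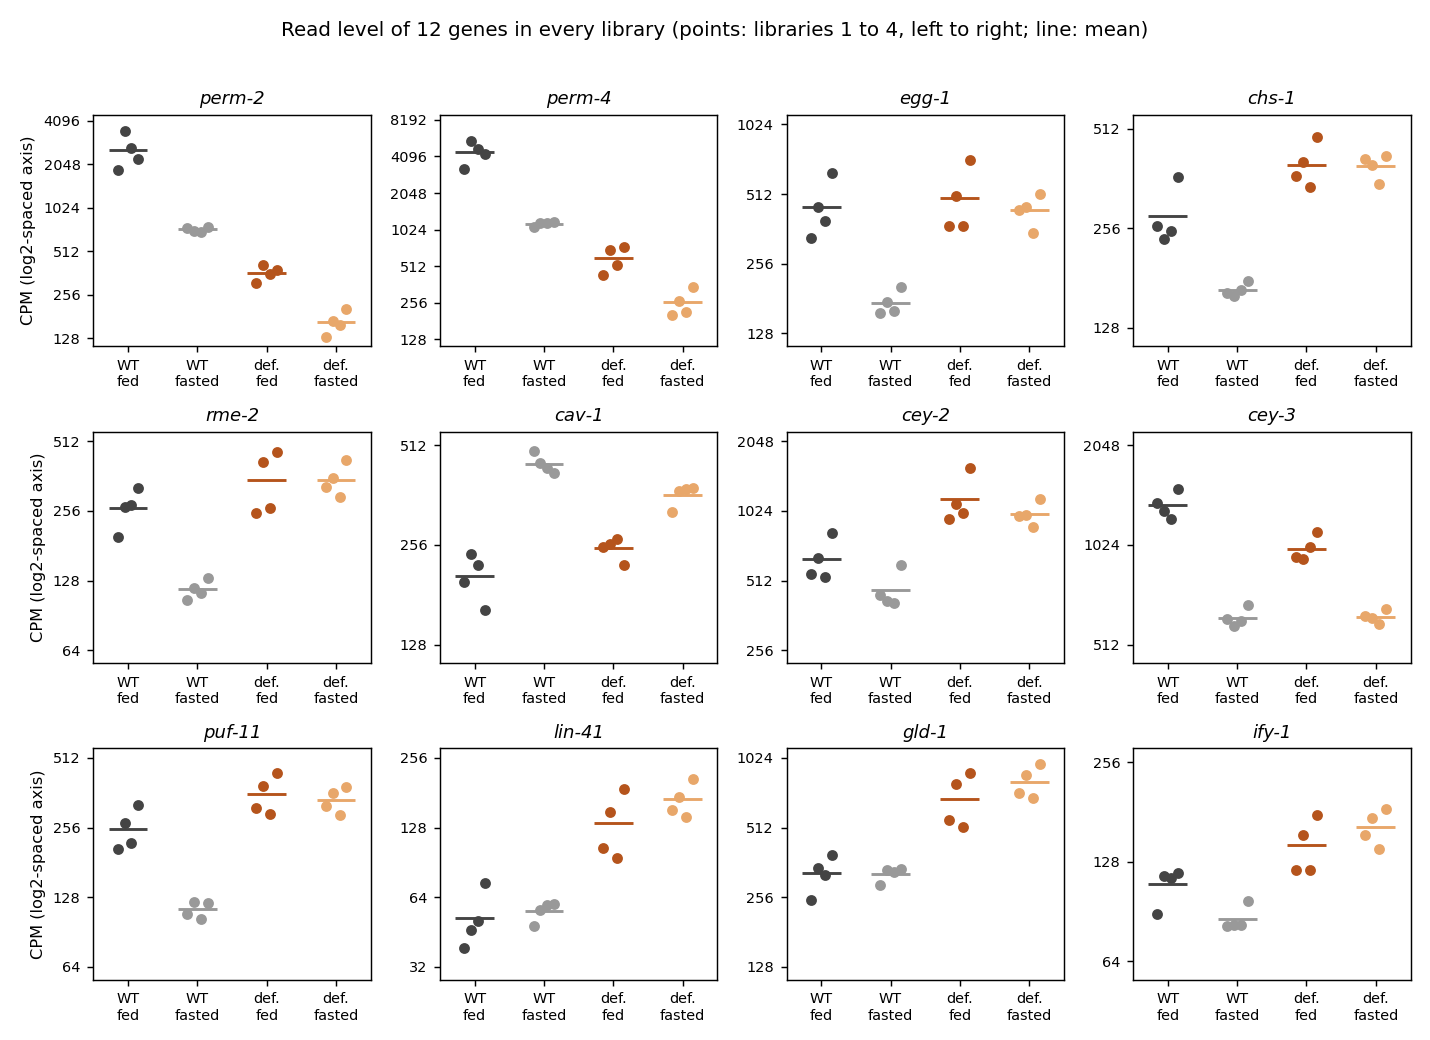
CPM of 12 members in every library, on a log2-spaced axis that differs between panels. Each point is a library, in the order of replicates 1 to 4 within a group, and the line is the mean of 4. *perm-2* and *perm-4* step down from group to group, *cav-1* is highest in fasted wild type, *cey-3* is low in both fasted groups, and *lin-41* and *gld-1* are high in both labelled-deficient groups.

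In labelled-deficient animals few members passed the test on fasting. *perm-2*, *perm-4* and *cey-3* fell, *cav-1* rose, and 32 members did not pass. Over all tested genes 15.7% were called lower and 19.6% higher in this comparison. The median member changed by 0.034 and the median of all tested genes by 0.11. Those 4 were also the members whose fed and fasted libraries did not overlap, while over all tested genes 35.6% did not. These counts depend on how replicate numbers are treated. With the replicate number as a block 7 members were higher and 8 lower, beside 4277 higher and 3129 lower of all tested genes. The numbers did not meet the cutoff for pairing given below, and calls in the next paragraphs are without the block.

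*perm-2* had 308, 410.0, 355 and 380.0 CPM in fed and 131, 167, 157 and 204 CPM in fasted labelled-deficient libraries. Every fasted library lies below every fed one, and the change was -1.14 (SE 0.16) with an edgeR adjusted p of 6.92e-06. *perm-4* had 436, 691, 526 and 737 CPM when fed and 202, 267, 217 and 347 CPM when fasted. The highest fasted library, replicate 4, stays below the lowest fed one, and the change was -1.21 (SE 0.18) with an edgeR adjusted p of 1.89e-05. *cey-3* had 942, 926, 1011 and 1118 CPM when fed and 627, 617, 589.7 and 656 CPM when fasted. The fasted values are close to those of fasted wild type, and the change was -0.68 (SE 0.11) with an edgeR adjusted p of 2.71e-05. *cav-1* had 253, 257, 267 and 223 CPM when fed and 323, 374, 377 and 379 CPM when fasted, a change of 0.54 (SE 0.12) with an edgeR adjusted p of 0.000974. Its fasted libraries all lie above its fed ones and all below those of fasted wild type.

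The other eggshell genes did not pass in these animals. *egg-1* had 373, 502, 372 and 717 CPM when fed and 438, 449, 349 and 513 CPM when fasted. The 2 ranges overlap, with a fasted low just under the fed one, and the change was -0.17 (SE 0.20) with an approximate 95% interval of -0.55 to 0.22. *chs-1* had 368, 404, 339.9 and 481 CPM when fed and 414, 398, 349 and 423 CPM when fasted. The fasted range lies inside the fed one, and the change was -0.0094 (SE 0.13), with an interval of -0.27 to 0.25. *cpg-1* had 399.6, 663, 411 and 869 CPM when fed and 634, 792, 659.6 and 952 CPM when fasted. The lowest fasted library lies above 2 of the fed ones and below the other 2, and the change was 0.38 (SE 0.21) with an edgeR adjusted p of 0.167. *cpg-3* stood at -0.44, *gna-2* at -0.30, *egg-2* at -0.24, *egg-3* at -0.13, *cpg-2* at 0.12 and *cbd-1* at 0.20.

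None of the 20 RNA-binding genes other than *cey-3* passed, and their changes ran from -0.35 for *oma-2* to 0.38 for *pie-1*. The 5 PUF genes stood between -0.086 and 0.021. *puf-11* had 312, 387, 294 and 440.5 CPM when fed and 317, 359.6, 291 and 384 CPM when fasted, and *rme-2* had 249.8, 416, 263 and 461 CPM when fed and 323, 356, 294 and 423 CPM when fasted. For both genes the fasted range lies within the fed one, apart from a fasted low of *puf-11* just under the fed low. *ify-1* had 121, 154, 121 and 178 and 154, 174, 139.6 and 185 CPM, a change of 0.18 (SE 0.13), and *mbk-2* stood at 0.29 (SE 0.14). Without fed labelled-deficient replicate 4 the count of members that rose was 5 instead of 1, while with all libraries 19.6% of all tested genes rose. Leaving out replicate 4 of every group also gave 5, with 4 members lower, beside 2753 higher and 2773 lower of all tested genes.

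The difference between the genotypes in their response to fasting was tested as an interaction, the change in labelled-deficient minus that in wild type. Positive values were called for 22 members, a negative one for *cav-1* and did not pass for 13. Among all tested genes 14.5% were called positive and 11.4% negative. By role 9 of 11 eggshell genes passed, with a median of 0.82, as did 11 of 21 RNA-binding genes, with a median of 0.67. The median of all tested genes was 0.068. The largest values were those of *cpg-1* at 1.21 (SE 0.30) and *egg-1* at 1.21 (SE 0.28), and edgeR gave adjusted p of 0.00461 and 0.00283. *rme-2* at 1.17 (SE 0.25) and *puf-11* at 1.07 (SE 0.21) had adjusted p of 0.00153 and 0.000534. *cav-1* had -0.59 (SE 0.16) with an edgeR adjusted p of 0.0112, so its rise on fasting was smaller in labelled-deficient animals.

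Other eggshell genes that passed were *egg-3* (1.09), *cbd-1* (1.06), *egg-2* (0.89), *gna-2* (0.82), *perm-4* (0.75), *chs-1* (0.73) and *perm-2* (0.68). *cpg-2* and *cpg-3* had 0.68 and 0.82 and did not pass. RNA-binding genes that passed were *pie-1* (1.05), *puf-3* (0.93), *puf-5* (0.85), *pos-1* (0.82), *oma-1* (0.79), *puf-7* (0.77), *spn-4* (0.73), *oma-2* (0.67), *nos-2* (0.63) and *cey-3* (0.44), beside *puf-11*. Among RNA-binding genes *gld-1*, *lin-41*, *car-1* and *cey-2* had the smallest values, at 0.25, 0.23, 0.29 and 0.24, and did not pass. *ify-1* passed at 0.53. Several of these calls had adjusted p just under the threshold and were lost when single libraries were left out. This held for *oma-2*, *puf-7* and *ify-1* in 11 of 16 fits each, *gna-2* in 10, *perm-4* and *cey-3* in 9 each and *perm-2* in 6. In those fits edgeR adjusted p ran from 0.0508 to 0.1003, and every value stayed positive.

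**Figure D3:**
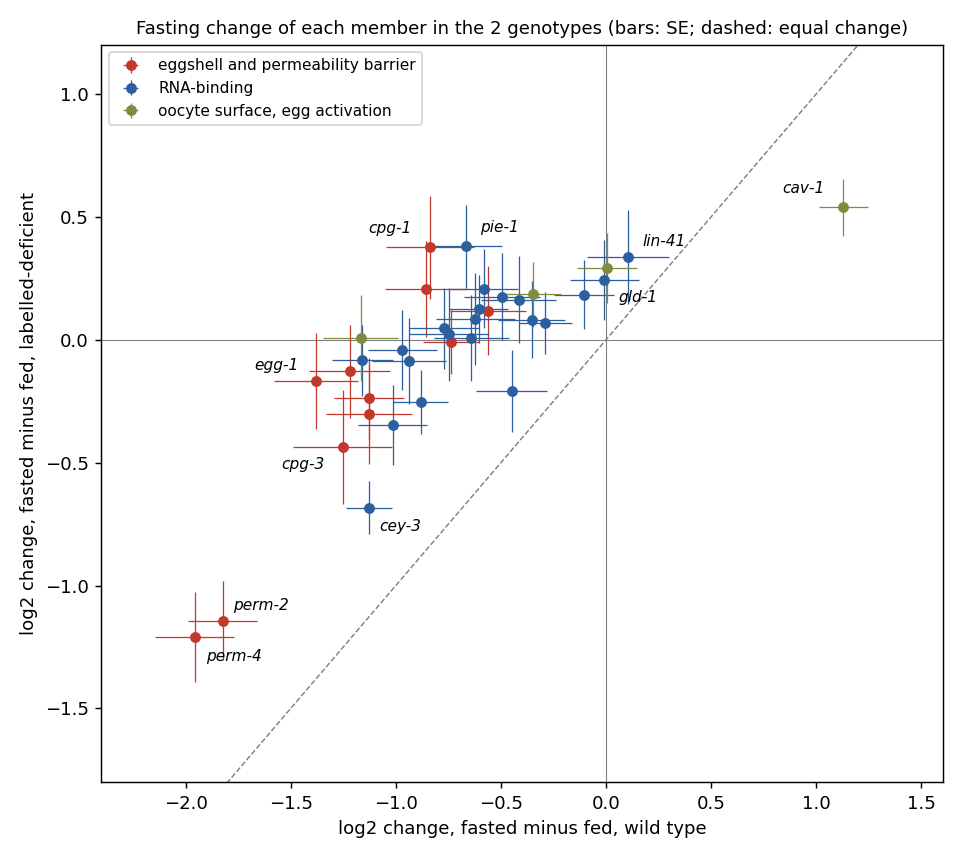
Log2 change on fasting of each of the 36 members in wild type (x axis) and in labelled-deficient animals (y axis), which share no library. Bars are standard errors and the dashed line marks equal change. *perm-2* and *perm-4* lie at the lower left, at -1.82 and -1.96 in wild type and -1.14 and -1.21 in labelled-deficient animals, most members lie left of 0 and near 0 on the y axis, and *cav-1* lies at the upper right below the line.

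Between fed animals of the 2 genotypes, the barrier genes differed most. In labelled-deficient libraries 14 of the 36 members had higher and 4 had lower levels, and 18 did not pass. Among all tested genes 24.6% were called higher and 31.7% lower. *perm-2* was 7.07-fold lower, with a log2 difference of -2.82 (SE 0.17) and an edgeR adjusted p of 7.12e-12. *perm-4* was 7.42-fold lower, at -2.89 (SE 0.19) with an edgeR adjusted p of 3.93e-11. The values given above show the gap, since the highest fed labelled-deficient library of *perm-2* is far below the lowest fed wild-type one, and the same holds for *perm-4*.

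The other members that were lower are *cpg-3* at -0.57 (SE 0.23) and *cey-3* at -0.43 (SE 0.11), and edgeR gave adjusted p of 0.0402 and 0.00147. For *cey-3* the groups do not overlap. For *cpg-3* they do, and the call was lost without wild-type replicate 4 (-0.31, edgeR adjusted p 0.229) and without labelled-deficient replicates 1, 2 or 3 (-0.48, -0.49 and -0.54). Of the eggshell genes only *chs-1* was higher, at 0.52 (SE 0.13) with an edgeR adjusted p of 0.0021. The remaining 7 ran from -0.37 for *gna-2* to 0.23 for *egg-3* and did not pass.

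Of the RNA-binding genes 10 were higher. *lin-41* had 104, 149, 94.6 and 188 CPM in fed labelled-deficient libraries, all above the 38.4, 46.4, 50.4 and 73.6 CPM of fed wild type. The difference was 1.36 (SE 0.20) with an edgeR adjusted p of 4.77e-06. *gld-1* had 554, 789.8, 514 and 877 CPM in fed labelled-deficient libraries, again all above wild type, and differed by 1.07 (SE 0.17) with an edgeR adjusted p of 1e-05. *car-1* differed by 1.06, *cey-2* by 0.86 and *cgh-1* by 0.84, each with no overlap between the groups. The 5 members named in this paragraph so far, with *cey-3*, are the RNA-binding genes whose fed libraries did not overlap between genotypes. Of all 36 members 25% did not overlap, and of all tested genes 41.9%. *mex-1* (0.61), *puf-3* (0.61), *puf-11* (0.50), *mex-3* (0.48) and *oma-1* (0.45) also passed while their groups overlapped. *mbk-2* (0.38), *ify-1* (0.39) and *cav-1* (0.28) were higher as well. The yolk receptor *rme-2* at 0.40 (SE 0.18) did not pass, with an edgeR adjusted p of 0.0587. The call of *cav-1* was lost in 12 of 16 fits without a library, with edgeR adjusted p of 0.0519 to 0.1696. *mbk-2* was lost in 5, and *mex-3* and *oma-1* in 4 each, among them the fits without wild-type replicate 1 and without labelled-deficient replicate 4. *ify-1* was lost in both of those 2 fits, at 0.30 and 0.27 (edgeR adjusted p 0.0633 and 0.0807).

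For the fed animals replicate numbers were taken to pair the libraries of both genotypes, by a chosen cutoff on correlation given below. With the replicate number as a block 21 members were higher and 8 lower, and 11 more members passed than without it. Calls rose over all tested genes too, to 27.7% higher and 35.1% lower. Among the added members, *rme-2* (0.38), *puf-5* (0.31), *puf-7* (0.37), *pie-1* (0.30), *mex-5* (0.28), *mex-6* (0.22) and *egg-3* (0.23) were higher, and *cpg-1* (-0.29), *gna-2* (-0.35), *nos-2* (-0.30) and *pos-1* (-0.27) were lower. Without wild-type replicate 1 the number higher was 9, and without labelled-deficient replicate 4 the number lower was 8, both with no block.

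Between fasted animals nearly all members were higher in labelled-deficient libraries. This held for 30 of 36, while *perm-2*, *perm-4* and *cav-1* were lower and *cpg-3*, *gna-2* and *cey-3* did not pass. Among all tested genes 28.2% were called higher and 29.3% lower. The median member differed by 1.07 and the median of all tested genes by -0.044. For 33 members, or 91.7%, the groups did not overlap, against 57.5% of all tested genes. *perm-2* differed by -2.14 (SE 0.17) and *perm-4* by -2.15 (SE 0.19), and edgeR gave adjusted p of 4.12e-10 and 3.28e-09. *cav-1* differed by -0.31 (SE 0.12) with an edgeR adjusted p of 0.0248. That call was lost without fasted wild-type replicate 1 (-0.27, edgeR adjusted p 0.0809) and without fasted labelled-deficient replicate 1 (-0.26, 0.0917).

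Eggshell genes outside the barrier pair were higher in 7 of 9 cases. *egg-1* differed by 1.33 (SE 0.20) and *egg-3* by 1.32 (SE 0.19), and edgeR gave adjusted p of 5.89e-06 and 4.41e-06. *chs-1* differed by 1.25, *cbd-1* by 1.15, *egg-2* by 1.05, *cpg-1* by 0.96 and *cpg-2* by 0.87. *gna-2* at 0.45 (SE 0.20) and *cpg-3* at 0.24 (SE 0.23) did not pass, with edgeR adjusted p of 0.0628 and 0.393.

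All RNA-binding genes except *cey-3* were higher. *cey-3* had nearly equal levels in both fasted groups, with a difference of 0.0099 and an approximate 95% interval of -0.20 to 0.22. *lin-41* had 153, 174, 141.7 and 209 CPM in the fasted labelled-deficient libraries, all far above those of fasted wild type. It differed by 1.59 (SE 0.20) with an edgeR adjusted p of 5.33e-07. *puf-11* differed by 1.57 (SE 0.15) and *puf-3* by 1.54 (SE 0.17), and *rme-2* among the surface genes by 1.57 (SE 0.18). *gld-1* had 719.6, 865, 686 and 964 CPM, all above the fasted wild-type libraries, and differed by 1.32. *pie-1* (1.36), *car-1* (1.35), *cgh-1* (1.28), *oma-1* (1.24), *mex-1* (1.19), *puf-5* (1.18), *puf-7* (1.16), *mex-3* (1.15), *cey-2* (1.09) and *mex-5* (1.00) lay at or above 1. *puf-6* (0.87), *spn-4* (0.71), *mex-6* (0.58), *pos-1* (0.58), *oma-2* (0.51) and *nos-2* (0.33) lay lower. *nos-2* was lost in 7 of 16 fits without a library, with edgeR adjusted p of 0.0511 to 0.127. *ify-1* differed by 0.92 and *mbk-2* by 0.67.

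**Figure D4:**
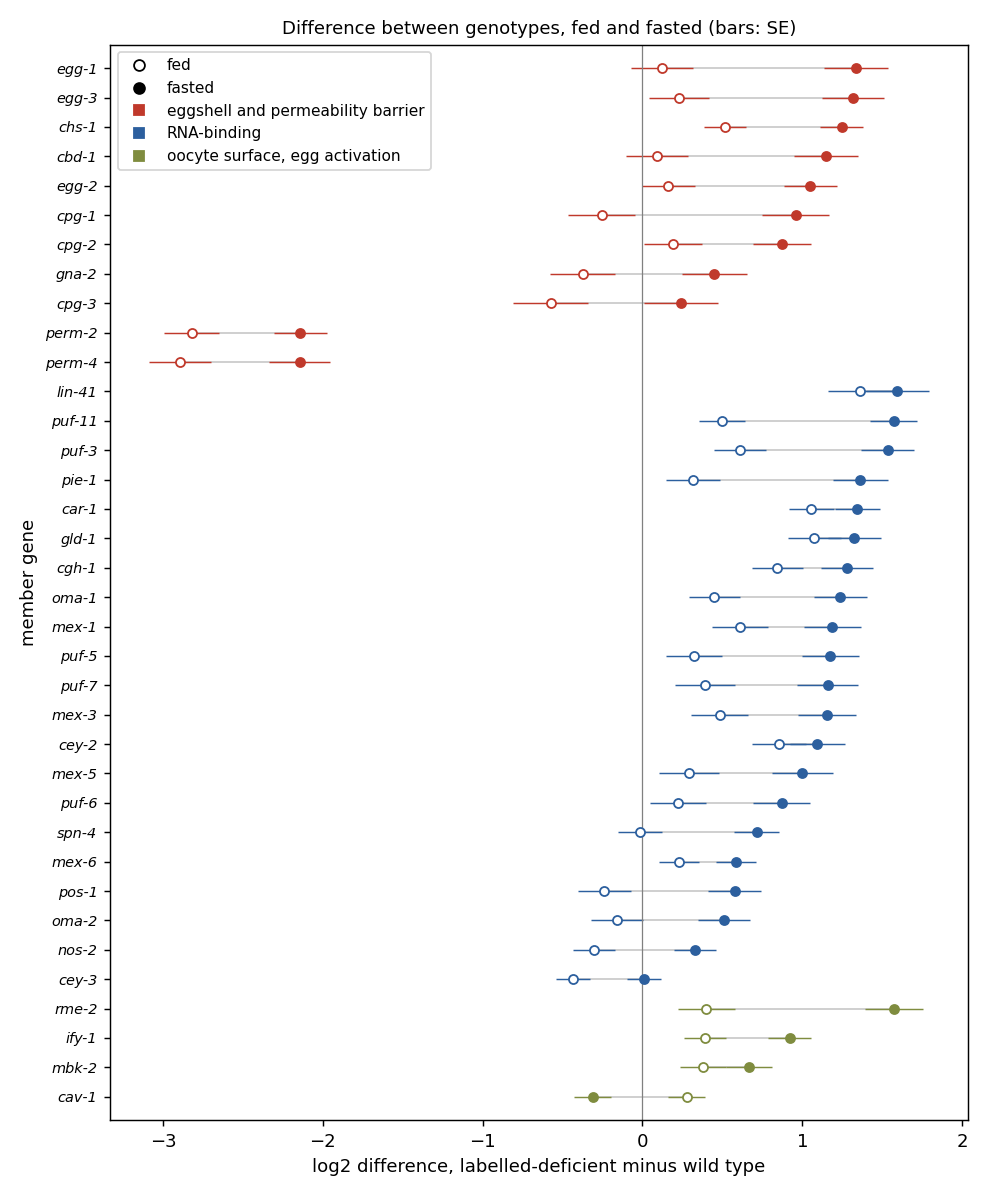
Log2 difference between labelled-deficient and wild-type animals for each member, fed (open circles) and fasted (filled circles), with standard errors as bars. Every filled circle lies to the right of its open one except that of *cav-1*, which goes from 0.28 to -0.31, and *perm-2* and *perm-4* lie apart at the left, between -2.89 and -2.14.

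The eggshell genes were set against the RNA-binding genes within each library, as the mean log2 CPM of the 11 eggshell genes minus that of the 21 RNA-binding genes. This value does not depend on how libraries are scaled. Its size also reflects gene length, so its change between groups is what it shows. It was 1.44, 1.39, 1.38 and 1.48 in the fed wild-type libraries and 0.85, 0.79, 0.84 and 0.98 in the fasted ones. It was 0.49, 0.43, 0.61 and 0.56 in the fed and 0.25, 0.17, 0.24 and 0.28 in the fasted labelled-deficient libraries. The 4 groups do not overlap, and each step is larger than the spread within the groups. Their means were 1.42 ± 0.046, 0.87 ± 0.083, 0.52 ± 0.076 and 0.24 ± 0.048 (SD, n = 4).

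Part of that order came from the barrier pair. Without *perm-2* and *perm-4*, a choice made after their values were seen, the means were 0.89 ± 0.13 in fed and 0.50 ± 0.11 in fasted wild type (SD, n = 4). They were 0.51 ± 0.092 in fed and 0.43 ± 0.061 in fasted labelled-deficient libraries. Fed wild type stayed above the other 3 groups, whose ranges overlapped. With the median over members in place of the mean, the value of fasted labelled-deficient libraries was -0.0061 ± 0.15 (SD, n = 4), again the lowest of the 4 group means. Neighbouring groups then overlapped. Libraries ran from 1.15 to 1.43 in fed and 0.54 to 1.28 in fasted wild type. They ran from 0.083 to 0.65 in fed and -0.19 to 0.12 in fasted labelled-deficient animals. In median log2 change, eggshell genes stood 0.50 below RNA-binding genes on fasting in wild type, 0.24 below in labelled-deficient animals, 0.30 below between fed and 0.20 below between fasted genotypes. These are descriptions of the members chosen, with no test.

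**Figure D5:**
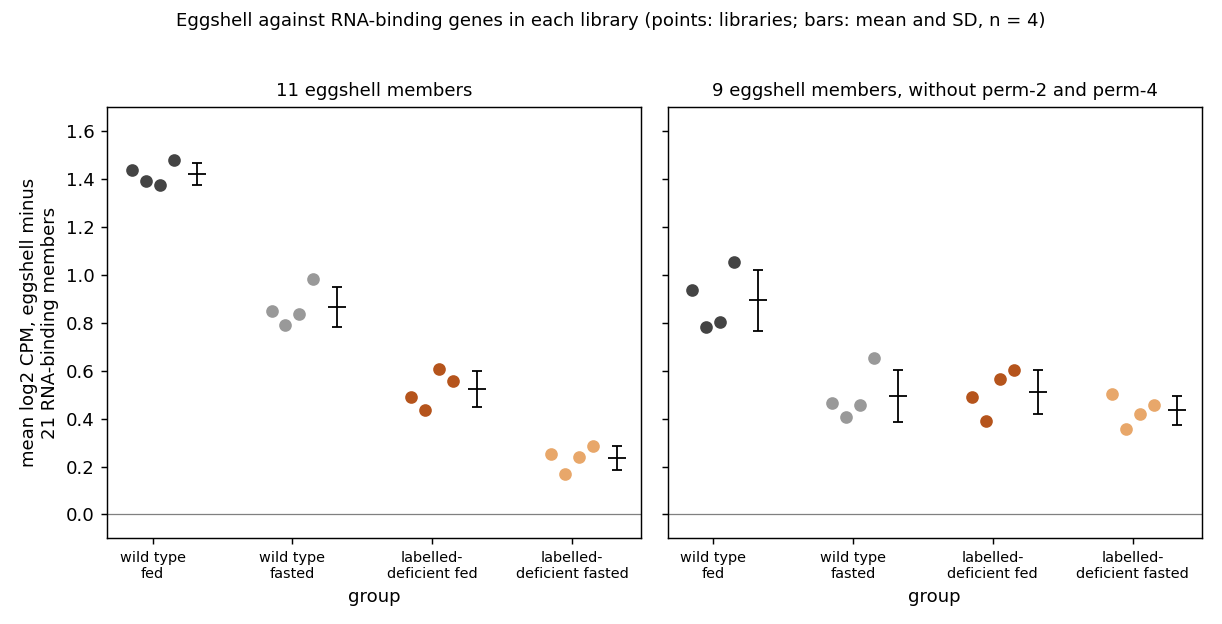
Mean log2 CPM of eggshell genes minus that of the 21 RNA-binding genes in each library, with all 11 eggshell genes (left) and without *perm-2* and *perm-4* (right). Points are libraries, and bars give the mean and SD of 4. On the left the groups step down from 1.42 to 0.24 without overlap, and on the right only fed wild type, at 0.89, stands above the others.

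On the TPM scale *perm-2* and *perm-4* together made up 51% ± 5.26 of the summed level of the 36 members in fed wild type and 30.3% ± 1.26 in fasted wild type (SD, n = 4). They made up 11.8% ± 1.04 in fed and 5.57% ± 0.493 in fasted labelled-deficient libraries. The 11 eggshell genes as a whole made up 68.3% ± 2.78, 51.3% ± 0.669, 38.9% ± 1.23 and 35.5% ± 0.898 in the same order of groups. The ratio within the barrier pair barely moved. *perm-2* held 36.5% ± 1.88 of the reads of the pair in fed and 38.8% ± 1.37 in fasted wild type, and 38.2% ± 3.31 and 39.2% ± 2.07 in the fed and the fasted group of the other genotype (SD, n = 4). The genes are neighbours on chromosome IV in the WBcel235 annotation, *perm-4* at 1121494 to 1125107 on the minus strand and *perm-2* at 1126790 to 1128865 on the plus strand. They point away from each other with 1683 bases between them.

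Close paralogues were compared as the share of the first gene in the summed TPM of the pair. Reads of similar genes can be exchanged by the authors' counting, so these shares are uncertain to that extent. The cold shock pair shifted most. *cey-2* held 30.7% ± 2.91 of the pair in fed and 41.7% ± 2.66 in fasted wild type, and 52.2% ± 4.03 in fed and 60.5% ± 1.84 in fasted libraries of the other genotype (SD, n = 4). These ranges do not overlap. In CPM, *cey-2* had 547, 642, 532 and 824 in fed and 443, 418, 408 and 595 in fasted wild type. It had 948, 1092, 1003 and 1563 in fed and 976, 979.7, 869 and 1158 in fasted labelled-deficient libraries, so both labelled-deficient groups lie above both wild-type ones. In the *oma* pair the share of *oma-1* was 25.6% ± 1.74 in fed and 31.5% ± 1.4 in fasted wild type. It was 34.8% ± 1.35 in fed and 43.8% ± 1.04 in fasted labelled-deficient libraries, again without overlap.

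The other pairs kept their shares more closely. *egg-1* held 62.6% ± 2.22 of its pair with *egg-2* in fed and 59.2% ± 1.49 in fasted wild type, and 62.2% ± 2.74 and 63.8% ± 1.01 in fed and fasted labelled-deficient libraries. *puf-3* held 47.4% ± 2.39, 50.6% ± 0.378, 49.1% ± 1.38 and 49.8% ± 1.32 of its pair with *puf-11* in that order. *puf-6* held 46% ± 1.29 and 47.5% ± 2.01 of its pair with *puf-7* in wild type, and 43% ± 0.709 and 42.6% ± 0.687 in labelled-deficient libraries. These ranges did not overlap between genotypes, with 44.2% the lowest share in wild type and 43.6% the highest in labelled-deficient libraries. *mex-5* held 54.3% ± 3.9, 48.9% ± 1.73, 55.3% ± 3.46 and 56% ± 2.24 of its pair with *mex-6*. Between fasted genotypes the shares of *egg-1* and of *mex-5* did not overlap either.

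Scaling bears on the counts of calls, since the wild-type fed libraries had the lowest TMM factors, 0.789 to 0.890, against 0.962 to 1.11 in the others. With library size alone, the median of all tested genes shifted by 0.34 for fasting in wild type, 0.29 for the fed genotypes and -0.29 for the interaction. Of all calls, 74.7% were then higher on fasting in wild type, against 49.8% with TMM. The share was 66.2% against 43.7% between fed genotypes, 21.8% against 56.1% for the interaction and 64.7% against 55.6% for fasting in labelled-deficient animals. The members then split into 4 higher and 19 lower on fasting in wild type, 3 and 3 on fasting in labelled-deficient animals, 24 and 2 between fed genotypes and 9 and 1 for the interaction. Relative to the median of all genes, the median member changed by -0.75 on fasting in wild type with library size alone and by -0.76 with TMM. Between fed genotypes it differed by 0.36 with either scaling, and for the interaction by 0.66 and 0.65. *gld-1* and *ify-1* turned positive on fasting in wild type with library size alone, at 0.34 and 0.0019. With DESeq2 size factors 15 members passed for the interaction in the positive direction, and 42.7% of all calls were higher on fasting in labelled-deficient animals and 44.3% for the interaction.

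Other genes of the same processes were counted from lists. Of all tested genes, 30.6% were called lower and 30.4% higher on fasting in wild type, and 15.7% and 19.6% in labelled-deficient animals. Between fed genotypes 31.7% were lower and 24.6% higher, and between fasted ones 29.3% and 28.2%. For the interaction 11.4% were negative and 14.5% positive. A list of 25 further eggshell and barrier genes, among them enzymes of chitin, chondroitin and lipid synthesis, had 20 lower and 1 higher on fasting in wild type. In labelled-deficient animals 4 were lower and 2 higher. Between fasted genotypes 19 were higher and 2 lower, and for the interaction 15 had positive and 1 had negative calls. The largest fall on fasting in wild type was that of the fatty acid synthase *fasn-1*, at -1.97 (SE 0.14, adjusted p 4.81e-11) by edgeR, and the 1 gene that rose was *cpg-7*, at 1.91 (SE 0.17, adjusted p 4.46e-09). Between fed genotypes 7 of the 25 were higher and 6 lower. *sqv-5*, a chondroitin synthase, was higher at 0.96 (SE 0.16, adjusted p 2.09e-05), and *cpg-7* was lower at -1.79 (SE 0.19, adjusted p 5.98e-08). The median change of the list on fasting in wild type was -0.75.

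Of 33 further germline RNA-binding genes listed, 31 were in the table. On fasting in wild type 5 were lower and 4 higher, with a median of -0.033, and in labelled-deficient animals 7 were higher and none lower. Between fed genotypes 24 were higher and 4 lower, with a median of 0.67, and between fasted ones 25 were higher and 3 lower. The interaction passed for 2, both positive. *glh-1*, a germ granule helicase, was higher between fed genotypes at 1.29 (SE 0.14, adjusted p 1.33e-07). *meg-1*, a germ granule protein of the embryo, fell on fasting in wild type at -0.96 (SE 0.19, adjusted p 0.000186) and was lower between fed genotypes at -0.82 (SE 0.19, adjusted p 0.000861). Of 12 further genes of egg activation and anaphase, 1 was lower and 1 higher on fasting in wild type, and 9 were higher between fed genotypes. The separase gene *sep-1* was the highest of these, at 1.32 (SE 0.15, adjusted p 1.78e-07). In labelled-deficient animals 3 of the 12 rose on fasting, between fasted genotypes 10 were higher, and the interaction was positive for 1.

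Markers of other cells were read beside these values. The shares of all tested genes given with the lists apply to their counts too, and several small counts lie near those shares. Of 18 meiotic germline genes 10 were lower and 1 higher on fasting in wild type, 6 lower and 3 higher in labelled-deficient animals. Between genotypes 10 were higher and 3 lower when fed and 14 higher and 2 lower when fasted, and the interaction was positive for 3. Their summed level was 1436 to 1942 CPM in fed and 1133 to 1269 CPM in fasted wild type. It was 1665 to 1954 CPM in fed and 1546 to 1719 CPM in fasted labelled-deficient libraries. Of 6 markers of the gonad sheath and spermatheca, 5 were lower on fasting in each genotype, and between genotypes 6 were lower when fed. When fasted 3 were lower and 1 higher, and the interaction was positive for 3. Their sum was 356 to 469 CPM in fed and 122 to 138 CPM in fasted wild type, and 175 to 202 and 117 to 136 CPM in the labelled-deficient groups. The fasted groups of both genotypes thus overlapped. The gap junction gene *inx-8* of the sheath fell on fasting in wild type at -1.84 (SE 0.11, adjusted p 2.4e-12). What part these cells have in the change of the barrier genes was not tested.

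Yolk protein genes, made in the intestine and taken up through RME-2, were lower in 5 of 6 cases on fasting in wild type and in 4 of 6 in labelled-deficient animals. Between genotypes 5 were lower when fed, and 5 were lower and 1 higher when fasted. The interaction was negative for 2 and positive for 1. Their sum was 63725 to 81706, 47940.4 to 57955, 34583 to 43218 and 24272 to 29942 CPM from fed wild type to fasted labelled-deficient libraries. Sperm markers were near 0, with a sum of 3.64 to 12.8 CPM over the 16 libraries for 13 genes, of which 5 were tested. Of those, 4 were higher and 1 lower on fasting in wild type and 2 higher and 1 lower in labelled-deficient animals. Between genotypes 2 were higher when fed, and 1 was higher and 1 lower when fasted, and none passed for the interaction.

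Markers of zygotic transcription in embryos were tested for 12 of 14 genes. They were higher for 8 and lower for 1 on fasting in wild type, and higher for 4 and lower for 1 in labelled-deficient animals. Their sum was 119.8 to 140.0 CPM in fed and 128 to 135 CPM in fasted wild type. It was 115 to 150.3 CPM in fed and 137 to 154 CPM in fasted labelled-deficient libraries. Between genotypes 3 were higher and 4 lower when fed, 1 higher and 4 lower when fasted, and the interaction was negative for 1. Intestine markers, 6 in all, were lower for 5 and higher for 1 on fasting in wild type, and lower for 2 and higher for 3 in labelled-deficient animals. All 6 were lower between fed genotypes, 2 higher and 2 lower between fasted ones, and 4 positive for the interaction. Their sum was 796 to 1000.2, 239.7 to 274, 365 to 408 and 283 to 301 CPM in the order of groups used above. Of 5 body muscle markers 4 were lower on fasting in each genotype, 1 being higher in wild type. Between genotypes 1 was higher and 1 lower when fed and 2 lower when fasted, with 1 negative for the interaction. Of 5 neuron markers 2 were lower on fasting in wild type and none passed in labelled-deficient animals. Between genotypes 3 were lower when fed, 1 higher and 2 lower when fasted, and 2 positive for the interaction. Of 4 tested hypodermis markers 2 were higher and 1 lower on fasting in wild type and 2 were lower in labelled-deficient animals. Between genotypes 2 were higher and 1 lower when fed, 1 lower when fasted, and 3 negative for the interaction. The sum of all 5 hypodermis markers was 1363 to 2579.8 CPM in fed and 174 to 208 CPM in fasted wild type, and 454 to 686 and 26.1 to 30.3 CPM in the labelled-deficient groups. In wild type most of that sum was *col-19*, with a mean of 1807 CPM when fed and 190 CPM when fasted. *dpy-13*, among those called higher, was near 0, at 0.082 and 0.505 CPM. No marker was at 0 in all libraries. What part changes of cell makeup have in the members' values was not tested.

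The 36 members lie on all chromosomes but X. Chromosome IV holds 11, I holds 9, II holds 7, III holds 6 and V holds 3, while X holds none, against 14.5% of all tested genes. The closest members are *gna-2* and *gld-1*, with 1460 bases between them, and these 2 behaved differently on fasting in wild type, at -1.13 and -0.0087. Overlap with genes on the other strand is short. The longest stretch is 154 exon bases shared by *nos-2* and *him-14*, and since strand use in the counting is not stated, reads there cannot be assigned with certainty.

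Transcript estimates were deposited for all members, and 16 have a single transcript. They carry no error of their own in the files and are given as a description. For *rme-2* the estimated share of transcript T11F8.3a.2 in the TPM of the gene was 67.6% ± 14.7 in fed and 16.8% ± 12.5 in fasted wild type (SD, n = 4). It was 72.0% ± 2.71 in fed and 67.2% ± 11.2 in fasted labelled-deficient libraries. Fasted wild type thus stands apart from the other 3 groups, as it does for the level of the gene. That transcript is 2895 bases long and the similar T11F8.3a.1 2932, so few reads tell them apart. For *ify-1* the transcript C27A2.3.1 took 14.9% ± 12.8 in fed and 36.96% ± 5.09 in fasted wild type (SD, n = 4), and it was listed at 0 in all 8 labelled-deficient libraries.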

How the data were processed

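Polyadenylated RNA of whole animals was read from both ends, 150 bases each, as the labels' protocols state. The authors deposited a gene table of estimated counts, and per library Salmon transcript estimates with estimated counts and TPM, per the file headers. The submitters' processing notes name Salmon 1.9.0, FastQC 0.11.8, MultiQC 1.19, R 4.3.2 and the builds WBcel235 and ce11. Strand use and the annotation release are not given in the sources used here. Positions are from the Ensembl annotation of WBcel235. Gene TPM values were summed from the transcripts, whose estimated counts matched the deposited gene table within 0.01 reads for every member.

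Estimated counts were rounded, filtered with filterByExpr (15840 genes left) and scaled by TMM. One quasi-likelihood model with a term per group was fitted to all 16 libraries with edgeR 4.0.16 in R 4.3.3, with two-sided tests and Benjamini-Hochberg adjustment over all tested genes in each of 5 contrasts, at 0.05. The standard error is the absolute log2 change divided by the square root of F, and approximate 95% intervals are 1.96 standard errors each way. Log2 CPM used a prior count of 2. The procedure was run on simulated counts with few changed genes, balanced in direction. That run does not test the scaling of these data, where many more genes were called. Replicates are independent experiments, per the labels' protocols, and all carry batch 1. No 2 libraries of a group agreed within sampling noise (chi-square per degree of freedom 5.75 to 85.1).

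Same-numbered libraries of different groups were taken as paired when deviations from group means correlated above 0.1 in all 4 pairs, a chosen cutoff. Only the fed genotypes met it (0.114 to 0.424). Correlations ran from 0.075 to 0.342 between fed and fasted wild type, with a mean of -0.048 for differently numbered libraries. They ran from 0.011 to 0.227 between fed and fasted labelled-deficient libraries, with -0.033 for different numbers. Between fasted genotypes they ran from -0.047 to 0.159, with -0.012 for different numbers. Pairing in these contrasts was not tested beyond the cutoff. Alternatives were the DESeq2 1.42.0 Wald test, voom of limma 3.58.1, DESeq2 size factors, library size alone, no filter, a mean of at least 5 CPM, the replicate block and each library left out. Added after seeing the data were the comparison without *perm-2* and *perm-4* and the fit without replicate 4 of every group. All 36 members are named. Values in every library are given, per role, for the member with the highest mean TPM and those with the most positive and most negative change past the threshold in each contrast, with close paralogues side by side. Values of *gld-1* were added to these after they were seen. Up to 4 genes of each further list could be named, by the largest change of each sign on fasting in wild type and between fed genotypes. The members and the lists were chosen with earlier results of these data known. Their sequences were not used here.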

Additional observations from a re-analysis of the deposited data

Results flagged for a closer look

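In groups of 4 libraries a value was singled out when its gap to the nearest other library, divided by the range of the group, exceeded Dixon's 95% critical value for 4 values. Among 144 combinations of member and group 10 did so, and chance alone gives about 1 in 20. In 7 of the 10 it was replicate 4 that stood high. These were *cpg-3* in fed wild type (1029 CPM) and in fasted wild type (439.7 CPM), and *chs-1* in fed wild type (365 CPM). Further cases were *egg-2* in fasted wild type (139 CPM), *egg-3* in fasted wild type (83.9 CPM) and *ify-1* in fasted wild type (97.2 CPM). *egg-2* in fed labelled-deficient libraries was the last case of replicate 4, at 377 CPM. Replicate 1 stood low for *cav-1* in fasted labelled-deficient libraries (323 CPM), for *gld-1* in fasted wild type (288 CPM) and for *ify-1* in fed wild type (89.3 CPM). The mean log2 CPM of the 11 eggshell genes in fasted wild type was also high in replicate 4, at 8.39.

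For 23 members the fasting change differed between genotypes by the test of the interaction itself (edgeR, adjusted p under 0.05). Among eggshell genes the interaction was 1.21 for *cpg-1*, 1.21 for *egg-1*, 1.09 for *egg-3*, 1.06 for *cbd-1*, 0.89 for *egg-2*, 0.82 for *gna-2*, 0.75 for *perm-4*, 0.73 for *chs-1* and 0.68 for *perm-2*. Among RNA-binding genes it was 1.07 for *puf-11*, 1.05 for *pie-1*, 0.93 for *puf-3*, 0.85 for *puf-5*, 0.82 for *pos-1*, 0.79 for *oma-1*, 0.77 for *puf-7*, 0.73 for *spn-4*, 0.67 for *oma-2*, 0.63 for *nos-2* and 0.44 for *cey-3*. For *rme-2* it was 1.17, for *ify-1* 0.53 and for *cav-1* -0.59.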

How the results depend on the processing

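With library size alone the members called were 4 higher and 19 lower on fasting in wild type, 3 higher in labelled-deficient animals, 24 higher and 2 lower between fed genotypes and 9 positive for the interaction. The construction of that setting shifts the median of all genes, as given above. A mean of at least 5 CPM gave 3 members higher on fasting in labelled-deficient animals, beside 2876 of all genes tested in that fit. No filter gave 5 lower, beside 3041. The replicate block gave 7 higher and 8 lower there, beside 4277 higher and 3129 lower of all 15840 tested genes. Between fed genotypes it gave 8 members lower, beside 35.1% of all tested genes. For contrasts other than that between fed genotypes the numbers did not meet the cutoff used for pairing, and pairing there was not tested further. The block ended no member's call. Without replicate 4 of every group 5 members were higher on fasting in labelled-deficient animals, beside 2753 of all tested genes. In that fit the difference in median log2 between eggshell and RNA-binding genes was -0.29 between fasted genotypes and 0.24 for the interaction. Without *perm-2* and *perm-4* that difference was -0.11 between fasted genotypes, and the mean log2 CPM difference was 0.89 in fed and 0.50 in fasted wild type and 0.43 in fasted labelled-deficient libraries. As a median over members it was 1.25 in fed wild type, 0.38 in fed and -0.0061 in fasted labelled-deficient libraries. With library size alone *gld-1* (0.34) and *ify-1* (0.0019) reversed on fasting in wild type. The cause of these moves was not tested.

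With single libraries left out, the count of members lower on fasting in wild type was 25 to 31 and the count higher stayed at 1. In labelled-deficient animals 1 to 5 were higher and 3 to 4 lower. Between fed genotypes 9 to 19 were higher and 3 to 8 lower, and between fasted ones 29 to 31 higher and 2 to 3 lower. The interaction was positive for 15 to 30 and negative for 1. The eggshell minus RNA-binding median log2 was -0.65 to -0.42 on fasting in wild type, -0.25 to -0.18 in labelled-deficient animals, -0.34 to -0.28 between fed and -0.25 to -0.17 between fasted genotypes, and 0.079 to 0.32 for the interaction. The mean log2 CPM difference was 1.40 to 1.44, 0.83 to 0.89, 0.49 to 0.55 and 0.22 to 0.26 from fed wild type to fasted labelled-deficient libraries. DESeq2, voom and DESeq2 size factors kept each count of member calls within 1.5 times. What depth does to the calls was not tested, and the lowest member value in any library was 25.9 CPM, that of *pie-1* in replicate 1 of fasted wild type.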
